A study of Mus musculus with 4 samples.

Results

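The cells described here are the leukocytes of the developing mouse molar that did not carry the complement transcripts of resident macrophages. They were taken from single-cell RNA sequencing of whole tooth organs by a rule on counts of unique molecular identifiers (UMIs), each of which tags 1 captured RNA molecule. A barcode with at least 1000 UMIs and under 10% of them mitochondrial was kept if it held at least 3 UMIs from at least 2 of Ptprc (CD45, the phosphatase on all nucleated blood cells), Laptm5 (a lysosomal protein of blood cells) and Coro1a (an actin-binding protein of leukocytes). It also had to hold at most 1 UMI of C1qa, C1qb and C1qc together, none of Epcam, and at most 10 of Col1a1, Col1a2 and Col3a1 together. The rule found 854 cells among 42164 retained barcodes (2.03%, 95% interval 1.89 to 2.16%) and 56940 deposited ones.

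The study profiled Wnt pathway genes in tooth morphogenesis, and its 4 libraries come from maxillary and mandibular molars of untreated wild-type C57BL/6J mice (genotype label WTB6) at the embryonic stage E15.5 (E15 in the labels) and postnatal day 1 (P1, with pups given as P0/P1 in the methods). Each library pooled 6 tooth organs, dissociated with TrypLE and run on the 10x Genomics 3′ kit, so there is 1 library for each stage and jaw. No group has replicates, and no test between conditions was run. All intervals below are exact 95% intervals that cover counting error, not the spread among mice.

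Leukocytes are made in fetal liver and then bone marrow and reach tissues through the blood. Neutrophils store antimicrobial proteins in granules that are filled in a fixed order during maturation, mast cells keep proteases and histamine ready for release, and monocytes enter tissue and can turn into macrophages or dendritic cells. Osteoclasts form by fusion of precursors of the same lineage and resorb the alveolar bone around the tooth germ, and B cells mature from precursors that carry a surrogate light chain to cells with a complete surface immunoglobulin.

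Members numbered 219 in the E15.5 maxillary molar, 140 in the E15.5 mandibular molar, 178 in the P1 maxillary molar and 317 in the P1 mandibular molar. They were 2.26% (1.98 to 2.58), 2.13% (1.79 to 2.51), 1.08% (0.928 to 1.25) and 3.37% (3.01 to 3.75) of the retained barcodes in that order, so that the P1 libraries held the lowest and the highest share. Of 1758 retained barcodes with the leukocyte UMIs, 773 were removed for C1q, 36 for Epcam and 95 for collagen. Members were 45.2, 43.8, 42.4 and 59.4% of the leukocyte barcodes in the same order.

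Total UMIs per library were 109723360, 86659227, 128812956 and 139873101, and members held 2310183, 1942499, 684815 and 2308188 of them. The median member had 8100 and 9983.5 UMIs in the E15.5 maxillary and mandibular molars, 2424 in the P1 maxillary molar and 5659 in the P1 mandibular molar. Since shares of cells with a UMI follow this depth, levels are given as UMIs of a gene per 1000000 UMIs of the group (CPM). Shares of cells in the neutrophil-like clusters, and some shares with cell cycle genes, are compared after thinning each cell to 1000 UMIs. Other counts of cells with a gene are at full depth. For each library all members are also summed, so a sum follows both the number of cells of a type and their RNA content.

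The P1 libraries do not stand independent of each other. They shared 7131 barcodes, 38.1% of the maxillary and 36.8% of the mandibular ones, while every other pair of libraries shared between 28 and 70. Median depth of the shared barcodes was 12088 UMIs for the maxillary copy and 2870 for the mandibular copy, with a median ratio of 4.21 between copies, and the rule keeps the maxillary copy. Among the P1 maxillary members 44 carry a shared barcode, 21 of which have UMIs of at least 3 neutrophil genes, against 26 of the 134 P1 maxillary members without a shared barcode and 235 of the 317 P1 mandibular members. The shares of the named groups in the P1 maxillary molar are also given without them. Whole-library levels are given without the shared barcodes unless stated.

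At the edges of the rule, 25 barcodes failed with 2 leukocyte UMIs, 36 members had 3 and 41 had 4. With C1q, 813 members had 0 UMIs and 41 had 1, whereas 7 barcodes failed with 2 and 3 with 3, and 635 had 10 or more. With collagen, 2 members had 9 UMIs and 2 had 10, and 4 barcodes failed with 11. Coro1a was found in 93.4% of members, Ptprc in 93.2% and Laptm5 in 85.6%, and the 3 genes together had a median of 12.5 UMIs per member. These are the values that chose the cells.

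To see which leukocytes these were, members of all libraries were clustered together and named from fixed marker lists. The 12 clusters gave 6 named groups and 2 unnamed ones. Neutrophil-like cells numbered 271, monocyte-like cells 208, mast-like cells 70, osteoclast-like cells 68, B-like cells 58 and conventional dendritic-like cells 45, while 84 cells formed an unnamed cluster led by C3ar1 and Mertk and 50 an unnamed cluster led by Nrgn and Egfl7. Clustering used 1000 variable genes outside the rule, so the genes that lead a group describe it and are no finding about it. Cells that hold at least 3 genes of the eosinophil list numbered 0 of 854, and those of the T cell list 7.

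**Figure D1:**
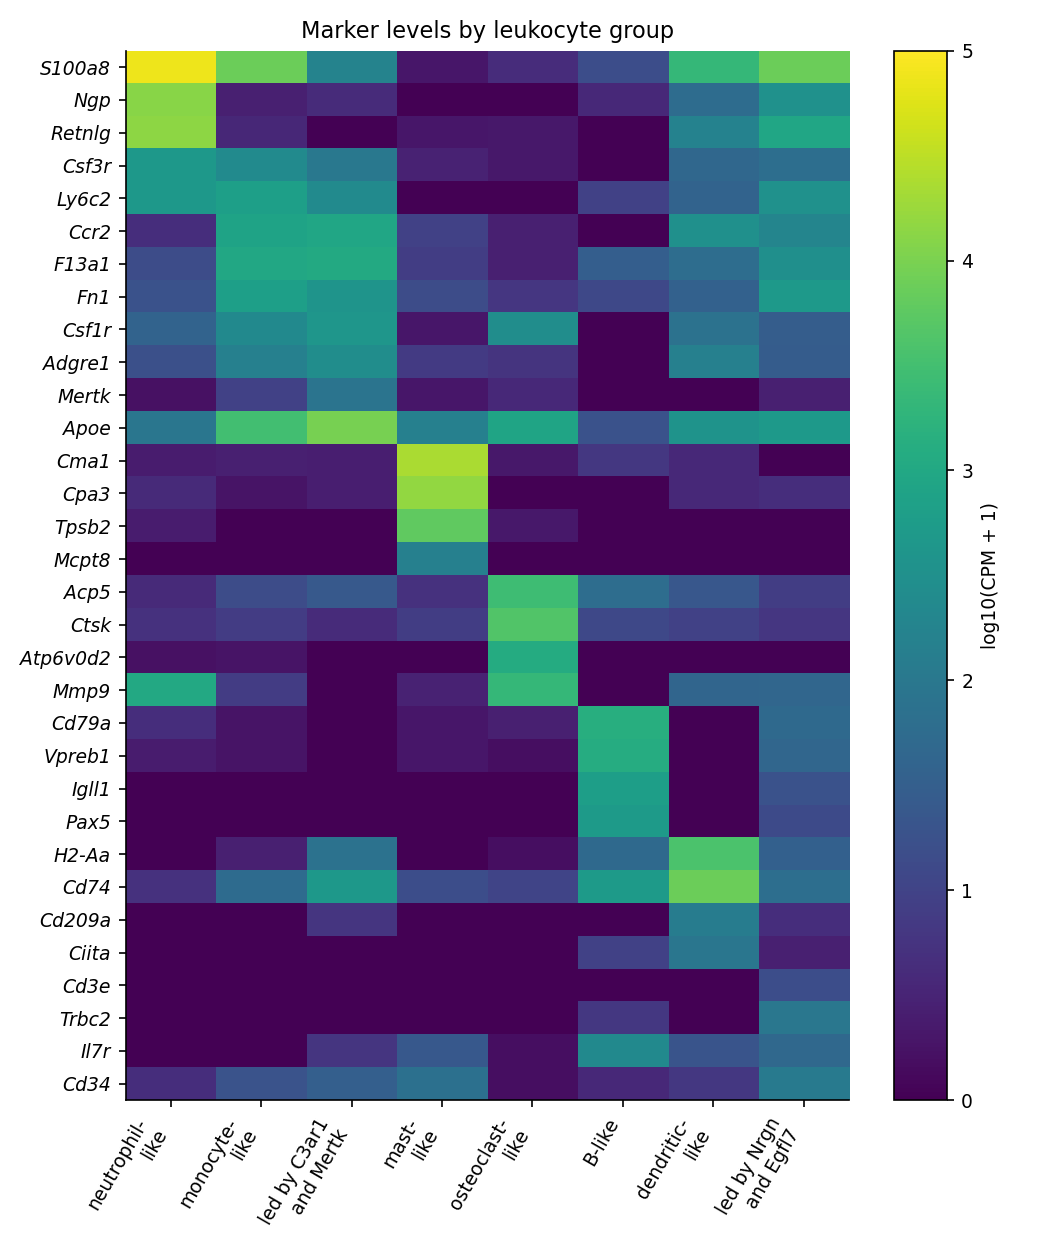
Levels of 32 marker genes (vertical axis) in the 8 groups of leukocytes (horizontal axis), as a color scale of log10(CPM + 1) over all libraries. S100a8 is at 73631 CPM in the neutrophil-like group and at 7541 and 7475 CPM in the monocyte-like group and the cluster led by Nrgn and Egfl7, while Cma1 is at 23120 CPM in the mast-like group and at 1.59 CPM in the other members.

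The makeup of the members differed between libraries. Neutrophil-like cells were 14.2% (9.82 to 19.5) of members in the E15.5 maxillary molar, 10.0% (5.58 to 16.2) in the E15.5 mandibular molar, 16.9% (11.7 to 23.2) in the P1 maxillary molar and 61.8% (56.2 to 67.2) in the P1 mandibular molar. Without the shared barcodes the P1 maxillary value was 8.21%. The P1 mandibular library thus stood apart from the other 3, whose intervals overlap.

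Monocyte-like cells made 27.4% (21.6 to 33.8), 27.9% (20.6 to 36.1), 42.1% (34.8 to 49.7) and 10.7% (7.54 to 14.7) of members in the same order. Mast-like cells made 16.0 and 15.7% at E15.5 and 3.37 and 2.21% at P1, and osteoclast-like cells 12.8 and 18.6% at E15.5 and 2.81 and 2.84% at P1. B-like cells made 2.74, 4.29, 3.37 and 12.6%. Without the shared barcodes the P1 maxillary shares were 51.5% for monocyte-like, 3.73% for mast-like, 2.24% for osteoclast-like and 0.746% for B-like cells, the last from 1 of 134 members. Conventional dendritic-like cells made 6.39% (3.54 to 10.5) and 5.71% (2.50 to 10.9) of members at E15.5, and 10.1% (18 of 178) in the P1 maxillary and 1.58% (5 of 317) in the P1 mandibular molar, with intervals at P1 that do not overlap. Without the shared barcodes the P1 maxillary dendritic-like share was 9.70%. Per 1000 retained barcodes these cells numbered 1.45, 1.22, 1.09 and 0.531, with intervals of 0.647 to 1.73 and 0.172 to 1.24 at P1 that overlap. Mast-like and osteoclast-like shares were lower at P1 in both jaws with intervals that do not overlap, and the B-like share was highest in the P1 mandibular molar.

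Since a share of members falls when another group grows, numbers were also set against all retained barcodes. Neutrophil-like cells numbered 3.20 per 1000 retained barcodes (2.18 to 4.54) in the E15.5 maxillary molar, 2.13 (1.16 to 3.57) in the E15.5 mandibular molar, 1.82 (1.23 to 2.60) in the P1 maxillary molar and 20.8 (18.0 to 23.9) in the P1 mandibular molar. On this scale the monocyte-like values were 6.20, 5.93, 4.55 and 3.61, a narrower range than that of their shares of members. Mast-like cells numbered 3.62 and 3.34 per 1000 at E15.5 and 0.364 and 0.743 at P1, and osteoclast-like cells 2.89 and 3.95 at E15.5 and 0.303 and 0.956 at P1. The cluster led by C3ar1 and Mertk numbered 3.93, 2.58, 1.40 and 0.637 per 1000, and the cluster led by Nrgn and Egfl7 0.723, 1.22, 0.910 and 2.12. Retained barcodes had a median of 9841, 11613, 4186 and 10864 UMIs, so the P1 maxillary library was the shallowest.

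**Figure D2:**
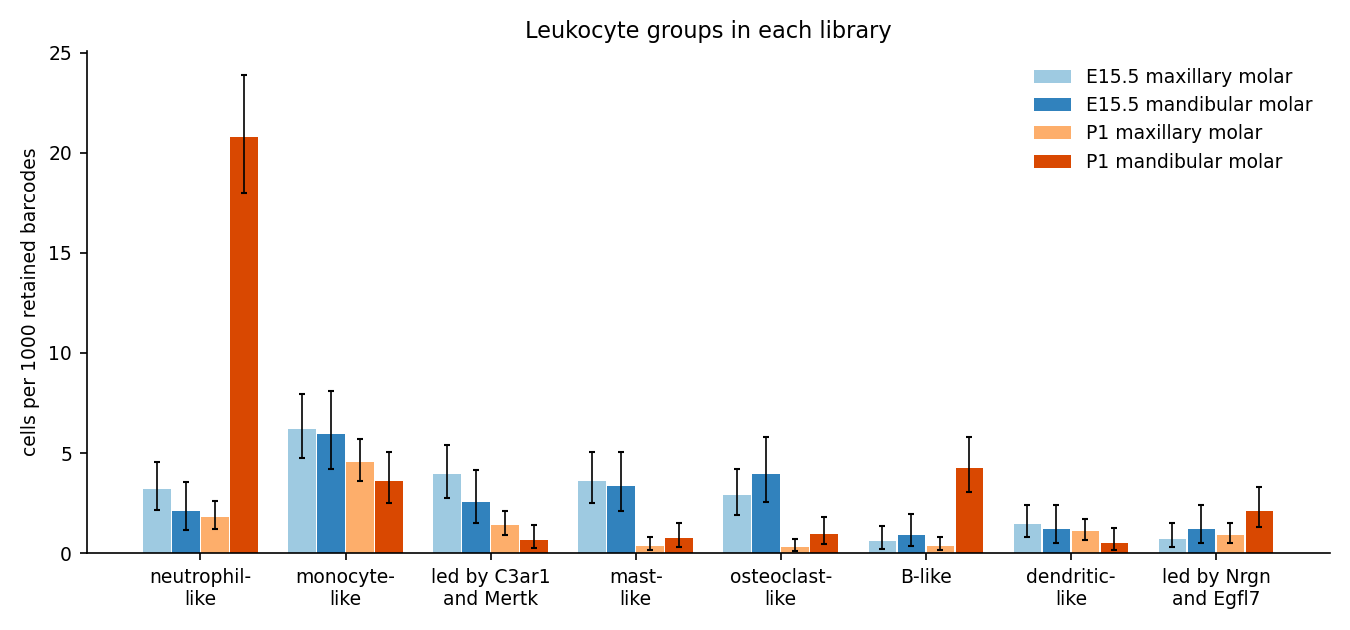
Cells of each leukocyte group per 1000 retained barcodes (vertical axis, from 0) in the 4 libraries, with exact 95% counting intervals as error bars. The neutrophil-like bar of the P1 mandibular molar stands at 20.8, and mast-like and osteoclast-like bars are lower at P1 than at E15.5 in both jaws.

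A count was also made that uses neither the clusters nor the limits on C1q, Epcam and collagen. Retained barcodes with UMIs of at least 5 neutrophil genes numbered 50 in the E15.5 maxillary molar, 24 in the E15.5 mandibular molar, 38 in the P1 maxillary molar and 261 in the P1 mandibular molar, or 5.17, 3.65, 2.30 and 27.7 per 1000. Barcodes with at least 5 mast cell genes numbered 5.37, 4.10, 1.27 and 2.65 per 1000, those with at least 5 osteoclast genes 5.17, 6.08, 1.15 and 2.02, and those with at least 5 B cell genes 0.827, 2.43, 1.15 and 7.96. For neutrophils, mast cells and osteoclasts the libraries stood in the same order as by clusters, whereas the B cell count was lowest in the E15.5 maxillary molar. Members made 35 of 52, 22 of 27, 3 of 21 and 7 of 25 of the barcodes with at least 5 mast cell genes. For osteoclast genes they made 27 of 50, 25 of 40, 4 of 19 and 8 of 19. The rule thus kept a smaller part of both kinds at P1 than at E15.5. Barcodes with at least 5 monocyte genes numbered 17.2, 11.7, 7.58 and 7.75 per 1000, with the P1 mandibular value no longer the lowest. Of 43 P1 mandibular barcodes removed by the collagen limit, 36 had at least 3 neutrophil genes and 21 at least 3 osteoclast genes. Of the 26, 14 and 12 removed in the E15.5 maxillary, E15.5 mandibular and P1 maxillary molars, 16, 6 and 2 had at least 3 osteoclast genes. At least 6 osteoclast genes were found in 3, 3, 1 and 1 of the removed barcodes in the usual order of libraries.

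Neutrophil-like cells were marked by the granule genes. Olfm4 (a protein of specific granules), Ceacam10, Ngp (neutrophilic granule protein), Mrgpra2b, Camp (the cathelicidin precursor), Ltf (lactoferrin, which binds iron), Chil1, Ankrd22, Scrg1 and Asprv1 had the largest ratios to the other members. S100a8 and S100a9, the subunits of calprotectin, reached 73631 CPM (73182 to 74082) and 98236 CPM (97717 to 98756), with UMIs in 270 and 269 of the 271 cells. In barcodes without leukocyte UMIs the same genes were at 4.06 and 4.98 CPM, and in B-like cells of all libraries S100a8 was at 14.0 CPM with a UMI in 5 of 58 cells.

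S100a8 was at 70117, 83842, 57800 and 74803 CPM in the E15.5 maxillary, E15.5 mandibular, P1 maxillary and P1 mandibular molars, and Camp at 9429, 9949, 7106 and 9728 CPM. Ngp was at 12704, 15768, 7946 and 13139 CPM. The P1 maxillary molar was the lowest of the 4 for all 3 genes, with 19 of its 30 cells on shared barcodes. Of its 30 cells 17 were also among the barcodes that scored highest for doublets (barcodes with RNA of more than 1 cell). In the other libraries these were 0 of 31, 1 of 14 and 32 of 196 cells.

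On GRCm38, S100a8 (chr3:90668978-90670035) and S100a9 (chr3:90692632-90695721) lie close together, and Camp (chr9:109847379-109849617), Ngp (chr9:110419747-110423012) and Ltf (chr9:111019271-111042767) lie on the same chromosome.

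The 4 neutrophil-like clusters differed in which granule and receptor genes they held. Cluster 2 (91 cells) had Ngp at 24221 CPM, Camp at 17800 and Ltf at 6630, all proteins of secondary granules, with Il1b at 28.8 CPM and Csf3r, the receptor for granulocyte colony-stimulating factor, at 111. In cluster 6 (70 cells) Ngp was at 3352 CPM and Retnlg (a secreted resistin-like protein) at 25479, and Mmp8, the neutrophil collagenase, was at 2319. Cluster 4 (77 cells) had Ngp at 267 CPM, Retnlg at 15005, Csf3r at 1032 and Il1b at 3922. In cluster 11 (33 cells) Ngp and Camp had no UMI, Csf3r was at 1906 CPM, Il1b at 7980 and Cxcl2, a chemokine that draws neutrophils, at 13740. Ngp, Camp, Ltf and Lcn2 thus ran in the opposite order to Il1b over the clusters, while Mmp8, Mmp9 and Retnlg were highest in cluster 6. These differences are part of how the cells were clustered.

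After thinning to 1000 UMIs the order of the clusters was kept for Ngp, Il1b and Csf3r but not for every gene. Ngp had a UMI in 97.8, 57.1, 6.49 and 0% of cells of clusters 2, 6, 4 and 11, and Il1b in 2.20, 30.0, 85.7 and 90.9%. Csf3r was found in 15.4, 31.4, 67.5 and 75.8%. Retnlg was in the most cells of cluster 6, at 100% against 90.1, 76.6 and 39.4% in clusters 2, 4 and 11. Cluster 2 thus stood above cluster 4, the reverse of their Retnlg levels of 10304 and 15005 CPM. Ltf was in 1.3% of cells of cluster 4 and 3.03% of cluster 11, the reverse of its levels of 14.8 and 10.8 CPM.

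Primary granule genes, which are transcribed earliest, were nearly absent. Over the 271 cells Ctsg (cathepsin G) had 0 UMIs, Mpo (myeloperoxidase) and Elane (neutrophil elastase) had 1 each, and Prtn3 had 20 UMIs in 6 cells. Cebpe, the transcription factor of secondary granule genes, was at 302 CPM (274 to 332). The list of cell cycle genes summed to 321 CPM in the group, below 1041 CPM in barcodes without leukocyte UMIs.

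All 4 clusters held cells of every library. Cluster 2 had 14, 6, 8 and 63 cells in the usual order of libraries, cluster 6 had 7, 4, 8 and 51, and cluster 11 had 7, 1, 8 and 17. Cluster 4 had 3, 3, 6 and 65, so that 65 of its 77 cells came from the P1 mandibular library, and whether it is a state of that library alone cannot be told apart from a state of the stage and jaw. In that cluster 1 cell also held 113 UMIs of Mylpf and 135 of Acta1, genes of skeletal muscle.

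**Figure D3:**
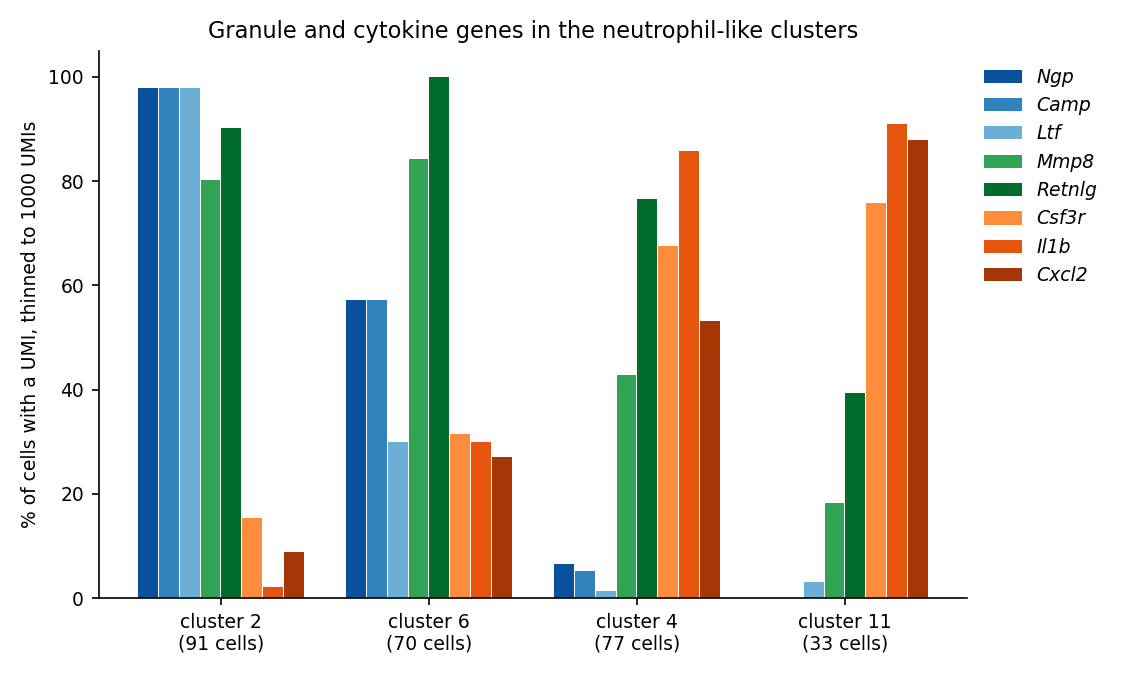
Percent of cells with a UMI after thinning to 1000 UMIs per cell (vertical axis) for granule, receptor and cytokine genes in the 4 neutrophil-like clusters. Ngp goes from 97.8% in cluster 2 to 0% in cluster 11, and Il1b from 2.20 to 90.9%.

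Whole libraries, summed over all barcodes without the shared ones, use neither the leukocyte criteria nor the clusters. In the P1 maxillary library this left 11576 barcodes with a median of 2318 UMIs, while its shared barcodes had a median of 12088. In the P1 mandibular library it left 12270 barcodes with a median of 8617.5 UMIs. The P1 maxillary levels thus rest on the shallower part of that library. S100a8 was at 166 CPM in the E15.5 maxillary molar, 115 in the E15.5 mandibular molar, 102 in the P1 maxillary molar and 873 in the P1 mandibular molar. Ngp was at 22.7, 16.3, 5.97 and 144 CPM, Camp at 16.8, 10.5, 3.74 and 106, and Retnlg at 19.9, 13.2, 12.5 and 174. For each of these genes the P1 mandibular library was the highest and the P1 maxillary library the lowest. Ltf was at 9.36, 5.01, 10.0 and 38.2 CPM, Cd177 at 0.775, 0.392, 1.55 and 4.19 and Mmp8 at 5.81, 3.46, 5.01 and 17.7, all highest in the P1 mandibular and lowest in the E15.5 mandibular library. With the shared barcodes counted, the P1 maxillary levels were 3.94 CPM for Ltf, 0.551 for Cd177 and 2.17 for Mmp8. The P1 maxillary library was then the lowest for Ltf and Mmp8. Ptprc itself was at 21.5, 19.8, 19.4 and 24.0 CPM in the same order.

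**Figure D4:**
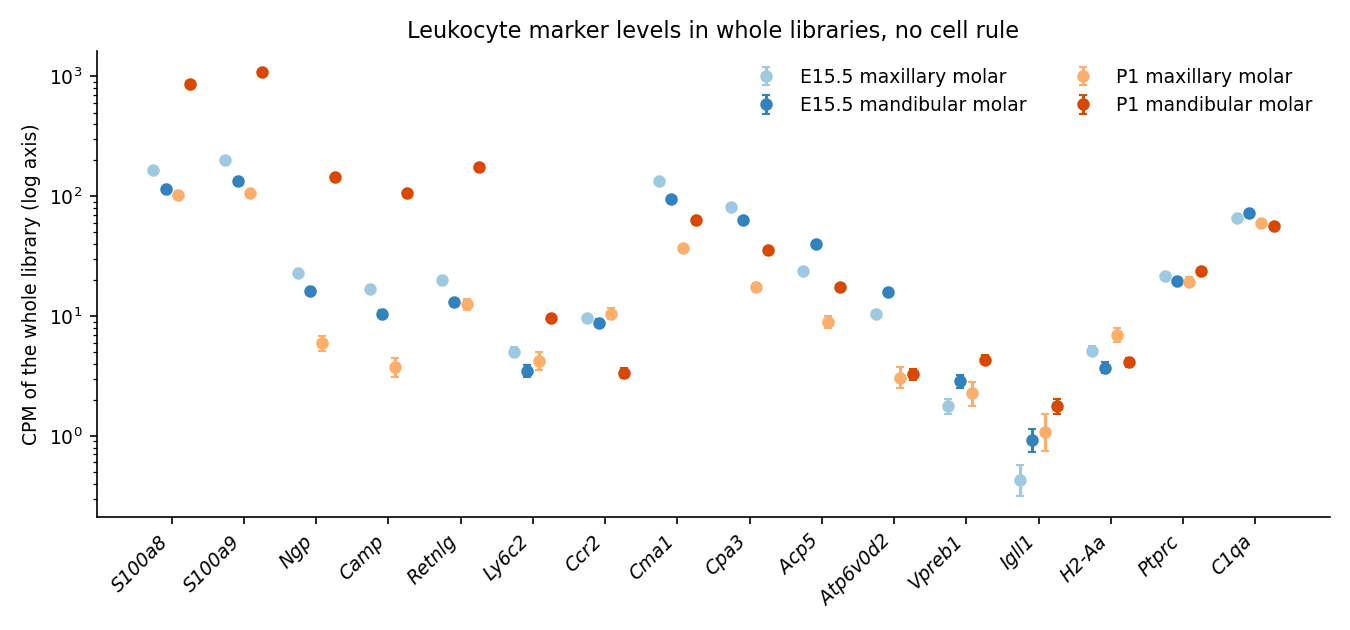
Levels of 16 leukocyte genes in whole libraries without shared barcodes (CPM, log axis) with exact 95% counting intervals, 1 point per library. Neutrophil genes are highest in the P1 mandibular molar, while Cma1, Cpa3 and Atp6v0d2 are lower at P1 than at E15.5 in both jaws.

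For P1 against E15.5 in neutrophil-like cells the jaws were pooled, since the E15.5 mandibular molar gave only 14 cells. Of 5167 genes with at least 20 UMIs over both stages, 546 were higher by 2-fold or more in the 226 P1 cells and 194 were lower, so the background is 10.6% higher and 3.75% lower. None of the 13 neutrophil list genes passed 2-fold in either direction, with a median log2 ratio of -0.16 beside 0.08 over all genes. S100a8 was at 74791 CPM in the E15.5 cells and 73376 CPM in those of P1, Ngp at 13747 and 12703, and Camp at 9606 and 9508. Cxcl2 was at 824 and 1870 CPM (log2 ratio 1.18, 0.98 to 1.39) and Il1r2, a decoy receptor for interleukin 1, at 555 and 309 CPM (log2 ratio -0.84, -1.13 to -0.55). The stages filled the clusters unequally, as given above, and 196 of the 226 P1 cells were mandibular while 31 of the 45 E15.5 cells were maxillary, so stage, jaw and cluster cannot be told apart in these values.

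The genes with the largest ratios in this comparison were those of other tissues. Higher at P1 were Acta1, Tnnc2, Amelx, Tnni2, Ckm, Myl1, Tnnt3 and Mylpf, of which all but Amelx are genes of skeletal muscle, followed by Ifitm10 and Wfdc17. For 6 of these 10 genes over 50% of the UMIs lay in 1 cell. Amelx, which codes for the enamel protein amelogenin, had 248 UMIs in 143 of 226 P1 cells and 0 in the 45 E15.5 cells, at most 6 in a cell, and was at 51.9 CPM in the P1 maxillary and 231 CPM in the P1 mandibular neutrophil-like cells. In barcodes without leukocyte UMIs Amelx was at 961 and 4234 CPM in those libraries, and the part of free RNA in the neutrophil-like value was not tested. Among the genes lower at P1, Krt4, Krt13, Krt15, Krtdap, Sprr3 and Sfn are epithelial, and 1 E15.5 cell held 157 of the 159 E15.5 UMIs of Krt4 and 152 of the 154 of Krt13. Traf6, Ddx3y, Tmem135 and Katna1 complete that list. For 7 of the 10 genes lower at P1 over 50% of the UMIs lay in 1 cell. Counted without its richest cell, Sfn was no longer lower, as given in the last section.

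Leading genes of the monocyte-like cells included Arhgef37, F10 (coagulation factor X), Plcb1, Vcan (versican), Wfdc17, Cd302, Gab1, Apoc1 and Arhgef10l. Ccr2, the receptor by which monocytes leave the marrow, was at 783 CPM (734 to 835), with 824, 910, 770 and 582 CPM in the 4 libraries, against 136 CPM in the other members. F13a1, a coagulation transglutaminase of monocytes, was at 985, 1105, 1063 and 822 CPM, and Plac8 at 2015, 1703, 1918 and 2166 CPM. Ly6c2, a surface protein of classical monocytes, was at 663, 400, 526 and 1066 CPM. Of the 34 P1 mandibular cells, 22 were among the barcodes that scored highest for doublets, against 3 of 60, 2 of 39 and 3 of 75 cells in the other libraries. In the other 12 cells Ly6c2 was at 538 CPM in place of 1066 and Ccr2 at 269 in place of 582.

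The 2 monocyte-like clusters differed in their shares of the stages and in gene levels. Cluster 0 (112 cells) held 23, 9, 55 and 25 cells of the 4 libraries and cluster 1 (96 cells) 37, 30, 20 and 9, so most E15.5 cells were in cluster 1 and most P1 cells in cluster 0. Ly6c2 was at 897 CPM in cluster 0 and 458 CPM in cluster 1, and Fn1 (fibronectin) at 850 and 484. Il1b was at 345 and 958 CPM, Cxcl2 at 134 and 596 and Cd14, a receptor for bacterial lipopolysaccharide, at 273 and 666. Such differences are part of how the cells were clustered. Median depth was 3908 UMIs in cluster 0 and 6923.5 in cluster 1, and its part in the split was not tested.

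S100a8 was at 7541 CPM in monocyte-like cells, well below the neutrophil-like value and above 2126 CPM in dendritic-like cells, where 772 of the 781 UMIs lay in 1 cell, and 1.03 CPM in mast-like cells. It was at 7452, 5053, 4357 and 12804 CPM in the 4 libraries. Chil3, a chitinase-like protein, was at 40.3, 26.0, 26.6 and 991 CPM, with UMIs in 19 of 208 cells. The P1 mandibular molar was the highest for both genes with all cells counted. Without the cells that scored highest for doublets, S100a8 was at 6778, 5180, 3417 and 2218 CPM, with the P1 mandibular molar now the lowest, and Chil3 at 37.9, 27.2, 5.51 and 632 CPM.

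For P1 against E15.5 in monocyte-like cells each jaw was compared on its own, and a gene counted only if both jaws passed 2-fold. Of 3882 genes, 13 were higher (0.335%) and 34 lower (0.876%) at P1, and 1 of the 9 monocyte list genes was higher and none lower. That gene was Fn1, at 493 and 1015 CPM in the maxillary molar and 416 and 935 CPM in the mandibular molar (log2 ratios 1.04 and 1.17). Pparg, a nuclear receptor of lipid metabolism, was at 26.0 and 69.1 CPM in the maxillary molar (log2 ratio 1.41, 0.13 to 2.71) and 6.50 and 116 in the mandibular molar (4.16, 2.19 to 7.27). Hes1, a target of Notch signaling, was at 47.4 and 122 CPM and at 13 and 113 CPM. The heat-shock gene Hspa1a, whose near-identical copy Hspa1b makes its count uncertain, was at 1414 and 2949 CPM and at 507 and 4561 CPM. Nt5dc1, Stmn1, Preb, Slc16a10, Gse1 and Stat5b were also among the genes with the largest ratios, at log2 ratios of 1.08 or more in each jaw.

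Lower at P1 was Socs3, an inhibitor of cytokine signaling that cytokines induce, at 599 and 260 CPM in the maxillary molar (log2 ratio -1.20, -1.67 to -0.76) and 416 and 93.8 CPM in the mandibular molar (-2.15, -2.83 to -1.52). Fpr1, a receptor for bacterial formyl peptides, was at 63.9 and 15.9 CPM and at 65.0 and 22.5 CPM. Sertad2 was at 126 and 31.9 CPM and at 101 and 22.5, and Tnfsf9 at 71.0 and 26.6 and at 74.7 and 3.75. Hivep2, Arpc1a, Fbxo28, Kansl1l and Clic4 were also among the ranked genes. None of the 20 genes ranked in this comparison had over 50% of its UMIs in 1 cell. Without the cells that scored highest for doublets, which leaves 12 P1 mandibular cells, the mandibular levels at E15.5 and P1 were 429 and 551 CPM for Fn1, 415 and 255 for Socs3 and 68.1 and 67.2 for Fpr1, all within 2-fold. They were 6.81 and 309 CPM for Pparg, 13.6 and 323 for Hes1, 504 and 4490 for Hspa1a and 88.5 and 26.9 for Sertad2. The clusters also hold different shares of the stages.

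The unnamed cluster led by C3ar1 (the receptor for complement C3a) and Mertk (a receptor for dying cells) held 38, 17, 23 and 6 cells. It met both the monocyte list and the list of macrophage genes other than C1q within the margin set for naming. Ccr2 was at 922 CPM and F13a1 at 1087, like the monocyte-like cells, while Apoe was at 9394 CPM against 3046 there, Adgre1 (F4/80) at 287 against 151, Cx3cr1 at 421 against 165 and Trem2 at 257 CPM. Lyve1, Cd163 and Folr2, genes of settled tissue macrophages, had 0 UMIs in the 84 cells, where 3 counts would be 4.78 CPM. Mrc1 was found in 16 of 84 cells and Pf4 in 12. Hemoglobin and other erythroid genes summed to 40784 CPM in this cluster, the highest of the groups, against 66502 CPM in barcodes without leukocyte UMIs, 14081 in monocyte-like and 448 in B-like cells, led by Hbb-bs. Its part in the cluster was not tested.

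Mast-like cells were led by granule proteases, Cma1 (a chymase), Cpa3 (carboxypeptidase A), Tpsb2 (a tryptase) and Mcpt4 (another chymase), followed by Rab27b, Prss34, Cyp11a1, Maob, Tpsg1 and Hs3st1. Cma1 was at 23120 CPM (22818 to 23425) with 24521, 16602, 26937 and 46356 CPM in the 4 libraries, against 1.59 CPM in the other members. Hdc, the enzyme that makes histamine, had UMIs in 70 of 70 cells and was at 6842, 4898, 4798 and 5032 CPM. Kit, the stem cell factor receptor, was at 592, 530, 285 and 721 CPM, and Gata2 at 601, 653, 760 and 769 CPM. On GRCm38 the chymase genes Cma1 (chr14:55941451-55944675) and Mcpt4 (chr14:56059629-56062313) lie on the same chromosome.

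Some protease and receptor genes had higher levels over the few P1 cells. Mcpt4 was at 1663 and 1070 CPM at E15.5, in 14 of 35 and 6 of 22 cells, and at 13207 and 11913 CPM at P1, in 1 of 6 and 6 of 7 cells. Mrgprb2, the receptor for cationic secretagogues on connective tissue mast cells, was at 13.1 and 4.91 CPM in the E15.5 molars and 333 and 360 CPM in the P1 molars. Fcer1a, the binding chain of the IgE receptor, was at 2.18 and 2.45 CPM in the E15.5 molars and 95 and 168 CPM in the P1 molars, whereas its partner Ms4a2 was at 120 and 90.8 and at 95 and 168 CPM. Tpsb2 was at 4693 and 4076 and at 7886 and 21341 CPM. With 13 mast-like cells at P1 against 57 at E15.5 no ranked comparison was made, and the P1 maxillary values of Mcpt4, Mrgprb2 and Fcer1a come from 1 cell each, with 2 UMIs of Fcer1a. The P1 mandibular UMIs of Fcer1a lay in 2 cells. Of the mast-like cells 1 of 35, 2 of 22, 0 of 6 and 4 of 7 were among the top-scoring barcodes for doublets. In the 3 P1 mandibular cells without them Mcpt4 was at 14037 CPM, Tpsb2 at 22914, Mrgprb2 at 196 (84.5 to 385) and Fcer1a at 171 (68.8 to 353), the last from 1 cell.

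Basophil genes were found in the same cluster. Of the 70 cells, 66 held Cma1, and Il4 was found in 66 and Cd200r3 in 62 cells. A single E15.5 mandibular cell without Cma1 or Kit held 110 of the 145 UMIs of Mcpt8, the basophil protease, with 36 of Prss34 and 22 of Cd200r3. A further 3 cells, all P1 maxillary and with a median of 1544 UMIs, held neither Cma1, Kit nor Mcpt8, so that only 3 of the 6 P1 maxillary cells carried the chymase. Muscle genes summed to 177 CPM in the group, led by Myog at 65.0 CPM, against 299 CPM in barcodes without leukocyte UMIs.

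In whole libraries without shared barcodes Cma1 was at 134, 95.2, 36.7 and 63.2 CPM and Cpa3 at 81.8, 63.0, 17.5 and 35.3 CPM. Both were lower at P1 than at E15.5 in each jaw, with the P1 maxillary levels from the shallower part of that library. On the same base, members without shared barcodes held 76.6, 82.1, 15.7 and 52.4% of the Cma1 UMIs, so that in the P1 maxillary library most of the 1185 UMIs lay outside the cells found by the rule.

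Osteoclast-like cells were led by Atp6v0d2 (a subunit of the proton pump), Ctsk (cathepsin K, which digests bone collagen), Slc9b2, Dcstamp and Ocstamp (needed for cell fusion), Mt3, Acp5 (tartrate-resistant acid phosphatase), Bdh2, Slc18a1 and Cyp2s1. Ctsk was at 2552, 4554, 4618 and 8930 CPM in the 4 libraries and Acp5 at 1895, 3054, 2635 and 4648 CPM. Mmp9 was at 1025, 2280, 4731 and 4343 CPM and Mt3, a metallothionein, at 38.0, 57.2, 665 and 582 CPM. Atp6v0d2 was at 1025, 1368, 527 and 1332 CPM. Over all 14 cells at P1 and 54 at E15.5, Mmp9 and Mt3 were higher in both P1 libraries than in either E15.5 library, while Acp5 and Atp6v0d2 overlapped between the stages and the P1 maxillary level of Ctsk was close to the E15.5 mandibular one. Of these cells 1 of 28, 5 of 26, 4 of 5 and 5 of 9 were among the top-scoring barcodes for doublets. Without them Mmp9 was at 1077, 2683, 228 and 6077 CPM and Mt3 at 40.0 and 71.7 CPM in the E15.5 molars, with no UMI in the 1 remaining P1 maxillary cell and 1110 CPM in the 4 remaining P1 mandibular cells. The higher P1 maxillary levels were thus found only with the top-scoring barcodes included. Mmp9 is also a neutrophil gene and was at 1062 CPM in neutrophil-like cells.

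The osteoclast-like cells were the deepest group, with a median of 25011.5 UMIs against 6500.5 over all members. Nfatc1, the master transcription factor of the osteoclast, was at 501 CPM (468 to 535), and Tnfrsf11a, the receptor RANK, at 212 CPM. Calcr, the calcitonin receptor, had 5 UMIs in 3 cells. The ligand of RANK, Tnfsf11, was at 0.433, 0, 4.38 and 0.866 CPM over all members and at 5.54, 3.24, 1.39 and 1.49 CPM in barcodes without leukocyte UMIs.

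Cell cycle genes were found in many of these cells. At full depth at least 3 of the 17 genes were detected in 54 of the 68 cells, and after thinning at least 2 in 30.9%, and the list summed to 2000, 904, 3237 and 614 CPM in the 4 libraries. In the 54 cells Ctsk was at 3361 CPM, Mmp9 at 1484 and Acp5 at 2428, and in the other 14 at 9008, 5471 and 4516 CPM. Median depth was 26293 UMIs in the 54 cells and 22478 in the 14. The 54 cells numbered 26, 19, 3 and 6 in the 4 libraries and the 14 cells 2, 7, 2 and 3. The levels of these genes also differed between libraries, as given above. A deeper cell is more likely to show 3 of the genes, and the parts of depth and of library in this split were not tested.

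B-like cells carried genes of B cell precursors. Among the leading genes were Gm32569, Ms4a1 (CD20), Vpreb3 and Vpreb2 (chains of the surrogate light chain and its kin), Pax5 (the factor that commits cells to the B lineage), Igll1 (the other part of the surrogate light chain), Spib, Reln and Gfra1. Ebf1, an early B cell factor, was at 7637 CPM (7353 to 7929), Cd79a at 1334 and Ighm, the constant region of IgM, at 1768 CPM. Rag1, which cuts immunoglobulin genes, was found in 33 of 58 cells, while Dntt, which adds bases at the junctions, had 0 UMIs in 58 cells.

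Across libraries Vpreb1 was at 1748, 1955, 949 and 1099 CPM and Igll1 at 837, 1060, 524 and 541 CPM. Ms4a1 was at 0, 0, 32.7 and 435 CPM, Cd74 (the invariant chain of class II molecules) at 0, 0, 65.4 and 775 CPM, and Ighm at 887, 989, 1800 and 2046 CPM. The 12 E15.5 cells thus had no UMI of Ms4a1 or Cd74, and both genes were found at P1. Of the P1 cells, 4 of 6 maxillary and 8 of 40 mandibular ones were among the barcodes that scored highest for doublets, against 0 of 12 at E15.5. Without them the 2 remaining P1 maxillary cells had no UMI of either gene, and in the 32 mandibular cells Ms4a1 was at 683 CPM, in 18 cells, and Cd74 at 1228 CPM, in 17. Only 1 of the 6 P1 maxillary cells carried a barcode that was not shared.

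Within single cells the surrogate light chain and Ms4a1 were seldom found together. Of the 58 cells, 28 held Igll1 or Vpreb1 without Ms4a1, 18 held Ms4a1 without either, 2 held both and 10 held none of them. Cd74 had 0 UMIs in the 30 cells with Igll1 or Vpreb1 and was found in 17 of the 18 with Ms4a1 alone, at 2557 CPM. Ighm was at 1188 CPM in the first kind and 3076 CPM in the second, and Il7r, the receptor for interleukin 7, at 255 and 82.0 CPM. The median depths were 6510.5 and 3934.5 UMIs. The cells with Igll1 or Vpreb1 but no Ms4a1 numbered 5, 6, 2 and 15 in the 4 libraries and those with Ms4a1 alone 0, 0, 1 and 17. This split was chosen after the values were seen.

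The cell cycle list summed to 2867 CPM in B-like cells, the highest of the 8 groups by summed CPM. After thinning to 1000 UMIs at least 2 of its genes were found in 24.1% of B-like cells, below the 60% of the cluster led by Nrgn and Egfl7 and the 30.9% of osteoclast-like cells. These were 14 of the 58 cells, among them 11 of the 30 with Igll1 or Vpreb1 and 1 of the 20 with Ms4a1. In whole libraries without shared barcodes Cd79a was at 1.73, 2.47, 1.67 and 5.30 CPM.

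Conventional dendritic-like cells were set apart by the class II antigen presentation genes H2-Eb1, H2-Aa, H2-Ab1, Cd74 and their transactivator Ciita, with Cd209a, Gm20513, Rtn1, Kctd14 and the dendritic cell factor Zbtb46. H2-Aa was at 3000, 3298, 3164 and 8208 CPM in the 4 libraries, H2-Eb1 at 2460, 2933, 2731 and 7461 and Cd74 at 6238, 7116, 6337 and 14004. The P1 mandibular value, from 5 cells, was the highest for each. Of these 5 cells 2 were among the top-scoring barcodes for doublets, against 2 of 14, 2 of 8 and 3 of 18 in the other libraries. H2-Aa was at 12.8 CPM in all other members and had 0 UMIs in the 271 neutrophil-like cells, while Cd74 was at 90.7 CPM in all other members.

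Class II promoters carry a conserved set of boxes, the Y box among them, which holds an inverted CCAAT. The letters CTGATTGG were searched on both strands in the 250 bases before each RefSeq transcription start on GRCm38.p6. They were found in 3 of the 8 class II list genes that matched the table and were searched (H2-Aa, H2-Eb1 and H2-Oa, the last a subunit of an inhibitor of peptide loading) and in 4.43% of all genes in the table (1258 of 32851 promoters, or 3.83%). The list holds 13 genes, and H2-Ab1, Cd74 and Ciita, which also lead this group, were not among the 8. List genes on the chromosome of Cd74 were skipped, whereas the share over all genes includes that chromosome, so the shares have unlike bases. Windows of H2-Aa and H2-Eb1, which lead this group, are shown to place the letters, in capitals, near the start. For H2-Aa the window is chr17:34287824-34287953 on the minus strand, with the letters 51 bases before the start, and for H2-Eb1 it is chr17:34305737-34305866 on the plus strand, with the letters 62 bases before it. The sequences are RefSeq, read 5′ to 3′ along the gene.
H2-Aa: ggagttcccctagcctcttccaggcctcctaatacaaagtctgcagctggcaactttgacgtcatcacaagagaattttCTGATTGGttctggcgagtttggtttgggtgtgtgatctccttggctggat
H2-Eb1: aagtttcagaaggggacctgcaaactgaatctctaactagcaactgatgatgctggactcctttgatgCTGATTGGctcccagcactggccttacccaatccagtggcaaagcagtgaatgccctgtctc
A match is a description of these letters and does not show a bound site.

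Among the dendritic-like cells, 8 held Clec9a or Xcr1, genes of the cross-presenting type, and 12 held Cd209a or Clec10a, genes of the other conventional type. A further 3 held both pairs and 22 held none of the 4. Batf3, the factor of the first type, was at 138 CPM (63.2 to 262) in the 8 cells and 78.4 CPM (25.5 to 183) in the 12, from 9 and 5 UMIs, with intervals that overlap. It was at 91.2 CPM in the 22 cells with none of the 4 and had 0 UMIs in the 3 with both pairs. Ccr2 was at 46.1 and 565 CPM in the 8 and the 12 cells. H2-Aa was at 5530 and 6384 CPM, with intervals of 4973 to 6131 and 5779 to 7035 that overlap. It was at 3910 CPM in the 3 cells with both pairs and at 2544 CPM in the 22 with none of the 4, where 16 cells had a UMI of it. Ccr7 and Fscn1, genes of migrating dendritic cells, had 3 and 20 UMIs.

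For P1 against E15.5 in the 45 dendritic-like cells the jaws were pooled, and 12.3% of 3257 genes were higher and 12.1% lower by 2-fold or more. The ranked genes rest on single cells. The 10 with the largest ratio, among them Gap43, Tubb2b, Stmn2 and Prph, which are genes of neurons, had most of their UMIs in the same P1 cell, and 9 of the 10 with the smallest ratio, among them S100a9 and Stfa1, had theirs in 1 E15.5 cell. Of the 11 class II genes measured 1 was higher and none lower.

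The cluster led by Nrgn, Egfl7, Setbp1, Adgrg1, Slco3a1, Cd93, Rnf220, Sparc, Ctla2a and Cdca5 was a mixture. At least 3 cell cycle genes were found in 39 of its 50 cells, at least 3 monocyte genes in 25 and at least 3 neutrophil genes in 18. The cells also included 7 with at least 3 T cell genes, 12 with at least 3 genes of plasmacytoid dendritic cells, 11 with at least 3 of hematopoietic progenitors and 11 with at least 3 of endothelium. Over all 854 members 393 held at least 3 monocyte genes, 394 at least 3 neutrophil genes and 7 at least 3 T cell genes. At least 3 plasmacytoid genes were also found in 21 of the 84 cells led by C3ar1 and Mertk and in 13 of 58 B-like cells. Trbc2, whose count is uncertain beside its near-identical neighbor Trbc1, was at 163, 298, 294 and 2.77 CPM in the 4 libraries, and Cd3g at 150, 14.9, 221 and 0 CPM. Siglech, a receptor of plasmacytoid dendritic cells, was found in 6 of the 50 cells, at 655 CPM in the E15.5 mandibular molar. Endothelial genes summed to 626 CPM against 205 CPM in barcodes without leukocyte UMIs. Of these cells 40 were among the barcodes that scored highest for doublets, out of 169 such barcodes among the 854 members.

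Single T cell genes were found in some members. Cd3d, a chain of the T cell receptor complex, had 77 UMIs in 52 of the 854 cells, and 67 of these UMIs lay in 50 neutrophil-like cells, at 47.8 CPM (37.1 to 60.8). In the P1 mandibular neutrophil-like cells it had 57 UMIs in 41 cells. Cd8a had 0 UMIs in 854 cells, Cd4 had 1, and Ncr1, a receptor of natural killer cells, had 6 UMIs in 1 cell. Itga2b, the platelet integrin, was at 2.35 CPM. The eosinophil granule genes Epx and Prg2 had 0 UMIs.

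Set against the 670 C1q-positive leukocytes of the same libraries, the members were higher in granule genes and lower in genes of resident macrophages. Of 8703 genes with at least 20 UMIs over both groups in each library, 315 (3.62%) were higher by 2-fold or more in all 4 libraries and 425 (4.88%) lower. The groups were split by C1q, so these values describe the split. Over all genes the median log2 ratio was -0.05 and -0.04 at E15.5 and -0.14 and -0.28 at P1 in the maxillary and mandibular molars. The 10 genes with the largest smallest ratio were Ngp, Camp, Lcn2, S100a9 and 6 stefin and cystatin genes (Cstdc5, Stfa2, Stfa2l1, Cstdc4, Stfa3 and Csta2) that are near-identical copies and whose separate counts are uncertain. Ngp was at 925, 699, 1119 and 6070 CPM in members and had at most 0.527 CPM in the C1q-positive cells.

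Lower in members were Vcam1, Gas6, Pf4, Fcrls, Mrc1, Lyve1, Ms4a7, Ltc4s, Ccl12 and Gdf15. Mrc1, the mannose receptor, was at 44.2, 9.27, 20.4 and 6.50 CPM in members and 1774, 1715, 2295 and 1942 CPM in C1q-positive cells. Vcam1, an adhesion molecule, was at 0.433, 0.515, 1.46 and 0.433 against 113, 63.7, 123 and 129 CPM. Of the 14 macrophage genes other than C1q, 13 were lower and none higher, with a median log2 ratio of -3.96 beside -0.15 over all genes.

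**Figure D5:**
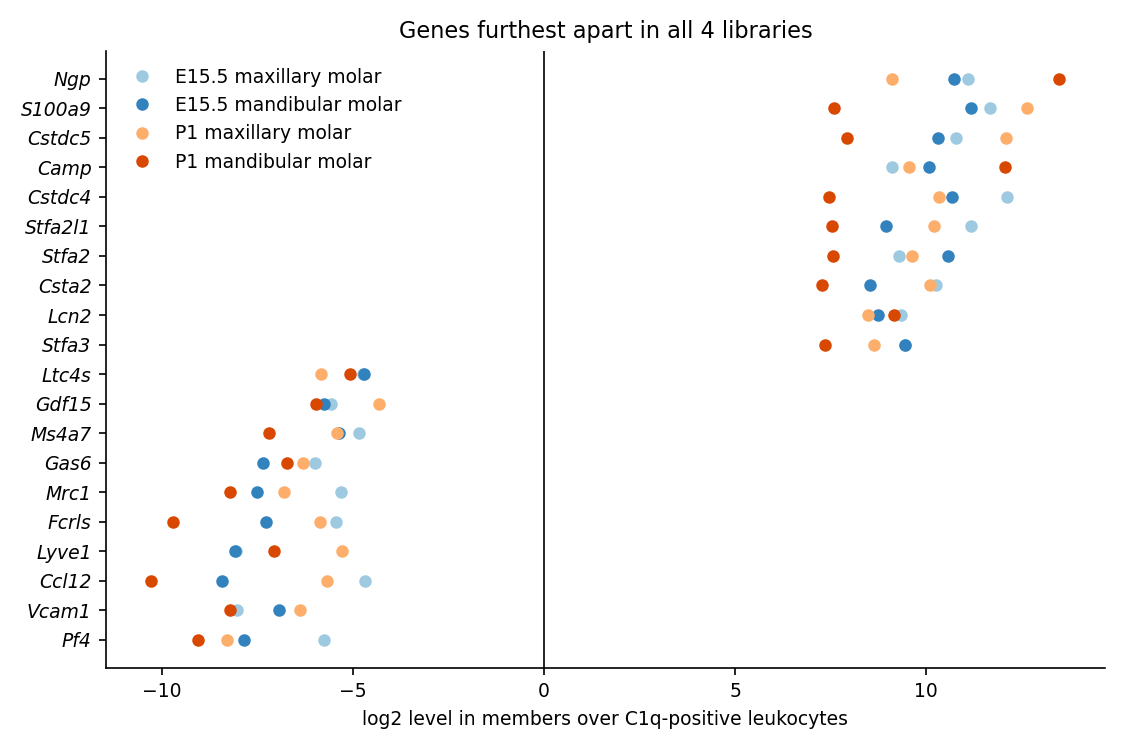
Log2 ratio of members over C1q-positive leukocytes for the 20 ranked genes (vertical axis), 1 point per library and no error bars, where a group without a UMI was set to 3 counts. Ngp lies between 9.12 and 13.49 and Mrc1 between -8.22 and -5.33, and no gene has points on both sides of 0.

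By function, 15 of the 26 granule protein genes had enough UMIs to be measured, and all 15 were higher in members (median log2 8.30). Genes nearly absent from C1q-positive cells reach the minimum of 20 UMIs mainly through the members, so nothing is read from this count. Of 11 adhesion and migration genes 5 were higher and none lower, among them the integrin genes Itgal, Itgb2 and Itgb7 and Selplg, the ligand of P-selectin. Of 8 class II genes 4 were higher and 1, Cd86, was lower. Spi1 (PU.1), the factor shared by myeloid cells, was at 391, 442, 416 and 450 CPM in members and 400, 416, 384 and 396 in C1q-positive cells, with log2 ratios between -0.03 and 0.18.

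Of 12 chemokine ligands measured, 7 were lower in members and none higher, with a median log2 ratio of -3.66. Cxcl16 was at 13.4, 12.4, 16.1 and 10.4 CPM against 132, 119, 138 and 172, Ccl2, which draws monocytes, at 20.8, 19, 65.7 and 7.37 against 299, 400, 247 and 306, and Cxcl10 at 56.3, 4.12, 14.6 and 5.20 against 279, 236, 168 and 113 CPM. Of the 6 measured chemokine receptors, Ccr2 and Cxcr2 were higher and Cx3cr1 lower. Ccr2 was at 300, 265, 412 and 114 CPM against 95, 87.9, 47.5 and 24.2.

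Il1b was at 342, 273, 790 and 682 CPM in members and 399, 332, 188 and 89.5 in C1q-positive cells, with log2 ratios of -0.22 and -0.28 at E15.5 and 2.07 and 2.93 at P1. Osm, oncostatin M, was at 55.0, 66.9, 92.0 and 165 CPM against 10.6, 13.1, 16.1 and 15.3, and Il18 at 20.8, 19.6, 27.7 and 7.80 against 141, 143, 131 and 135. Of the 10 cytokines measured, Osm and Ltb were the 2 that were higher in all libraries and Il18 the 1 that was lower. The makeup of members also differed by stage, as given above.

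Against the 38944 barcodes without leukocyte UMIs, 10.2% of 17664 genes were higher and 13.1% lower in members in all 4 libraries. The median log2 ratio over genes was -0.22, 0.00, -0.22 and -0.42 in the usual order. Of 20 cytokine receptor genes 17 were higher and 1 lower, and of 14 pattern and Fc receptor genes 13 were higher. The groups were chosen by their leukocyte UMIs, which sets receptor genes of leukocytes apart, so nothing is read from the receptor counts. All 10 mesenchyme genes and 8 of 9 epithelium genes were lower, but the limits on collagen and Epcam chose members with little RNA of those tissues, so nothing is read from these counts. Of 14 immediate early and dissociation genes 8 were higher and none lower, with Dusp1 at 435, 306, 536 and 506 CPM against 82.0, 36.0, 57.5 and 59.9.

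Wnt pathway genes were the subject of the study. Of 16 measured, 11 were lower in members by 2-fold or more in all 4 libraries and none higher, with a median log2 ratio of -3.70. Many of them are genes of mesenchyme or epithelium, whose RNA the limits on collagen and Epcam kept low in members, so the values are given as levels and nothing is read from the count. Wnt5a, a ligand of the mesenchyme, was at 2.60, 1.03, 1.46 and 3.90 CPM in members against 102, 41.9, 109 and 97.1, and Sostdc1, an inhibitor, at 3.03, 0.515, 0 and 2.60 against 275, 95.8, 170 and 143. Wnt10a was at 0, 0, 0 and 0.433 CPM against 8.52, 2.68, 33.4 and 48.6. Lef1, a nuclear mediator of the pathway that B cell precursors also use, was at 37.2, 27.8, 14.6 and 69.8 CPM against 67.9, 18.2, 46.1 and 47.1, lower in members of the maxillary libraries and higher in those of the mandibular ones. The coreceptors Lrp5 and Lrp6 were at 14.6 to 21.2 and 27.7 to 41.1 CPM in members.

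RNA of other tissues in the members was measured with the same lists. In neutrophil-like cells mesenchyme genes summed to 133 CPM, led by Sparc, against 4890 CPM in barcodes without leukocyte UMIs, and epithelium genes to 69.3 against 1017. These sums are partly set by the limits on collagen and Epcam, since 36 of the 43 P1 mandibular barcodes that the collagen limit removed had at least 3 neutrophil genes. Erythroid genes summed to 7201 CPM. In each library the hemoglobin gene Hbb-bs was lower in members than in barcodes without leukocyte UMIs, at 4811, 11801, 5181 and 2058 against 40429, 81605, 13349 and 16549 CPM.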

How the data were processed

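The authors processed the reads with Cell Ranger 7.0.1 against mm10 and deposited unnormalized UMI counts of 32285 genes per barcode for each library, in filtered matrices. Barcodes were filtered by the rule given above. P1 mandibular barcodes that also occur in the P1 maxillary library were dropped. Members were clustered with scanpy 1.11.5 (scaled to 10000 UMIs, 1000 variable genes without the genes of the rule, 20 principal components, 15 neighbors, Leiden resolution 1.0). A list gene counted as a marker if it was over 2-fold above barcodes without leukocyte UMIs and found in at least 25% of a cluster's cells. A list qualified with at least 3 markers that made at least 50% of its genes. A cluster was named where its best qualifying list had a mean log2 ratio of at least 3 over those barcodes, at least 0.5 above the next qualifying list. A cluster more than 3-fold shallower than its libraries also needed a list gene among its 10 genes with the largest ratio to those barcodes. All these naming thresholds were set after the clusters were seen. The members and the 32 gene lists (374 genes, 1 of them not in the table) were chosen with earlier results of these data known. Named genes are those of the rule and the lists, the 10 leading genes of each group, and the 10 genes in each direction with the largest ratio in a comparison, at 50 CPM or more in the higher group. Some genes that meet this rule are not reported here. Any other gene, and the splits by genes found together in a cell, were chosen after the values were seen. UMIs were summed per group and library. With 1 library for each stage and jaw, no test was run, and a gene is called higher or lower at 2-fold. Intervals are exact Poisson for levels, Clopper-Pearson for shares and exact binomial for ratios. Scrublet's automatic threshold marked 2, 0, 0 and 0 barcodes and so did not work, and instead the top-scoring 0.8% per 1000 barcodes (948, 505, 2800 and 3011) were marked and removed only in an alternative. The scripts were tested on simulated data.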

Additional observations from a re-analysis of the deposited data

Results flagged for a closer look

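The monocyte-like share of members was higher at P1 in the maxillary molar (by 14.7 percentage points) and lower in the mandibular molar (a change of -17.2), a difference of -31.9 points between the jaws. Per 1000 retained barcodes, monocyte-like cells numbered 6.20 (95% interval 4.73 to 7.97) at E15.5 and 4.55 (3.58 to 5.70) at P1 in the maxillary molar, and 5.93 (4.22 to 8.09) and 3.61 (2.50 to 5.04) in the mandibular molar, so that the intervals of the stages overlapped in both jaws. Of the 34 P1 mandibular monocyte-like cells, 22 were among the top-scoring barcodes for doublets. In whole libraries without shared barcodes the jaws also moved in opposite directions for S100a8, S100a9, Ngp, Camp, Lcn2, Retnlg and Csf3r, where the log2 ratio of P1 over E15.5 was below 0 in the maxillary and above 0 in the mandibular molar. The mandibular minus the maxillary log2 ratio was 3.63 for S100a8 (-0.70 and 2.92 in the maxillary and mandibular molars), 3.93 for S100a9 (-0.91 and 3.02), 5.07 for Ngp (-1.93 and 3.14) and 5.50 for Camp (-2.17 and 3.34). It was 3.60 for Lcn2 (-0.93 and 2.66), 4.39 for Retnlg (-0.67 and 3.72) and 1.40 for Csf3r (-0.45 and 0.95). The P1 maxillary levels in these ratios rest on its barcodes that are not shared, with a median of 2318 UMIs against 12088 for its shared ones. With 1 library for each stage and jaw none of these differences was tested. Among the P1 mandibular copies of shared barcodes, which enter no comparison, 15 met the rule for leukocytes, of which 5 had UMIs of at least 3 neutrophil genes.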

How the results depend on the processing

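No paired analysis was possible because no result comes from a test across libraries and the labels carry no numbers that pair them, although stages were compared within each jaw for monocyte-like cells. With 1 library for each stage and jaw no replicate was left out. Of 667 alternative values 562 stayed within the range set for no change, 104 moved and 1 reversed. With each barcode thinned to 1000 UMIs, 75, 38, 86 and 118 barcodes met the rule in place of 219, 140, 178 and 317. The neutrophil-like share of P1 mandibular members was 53.6% with 10 principal components and 74.2% without the barcodes marked by Scrublet. That of P1 maxillary members was 10.3% without the marked barcodes, 10.9% at a minimum of 2000 UMIs and 8.21% without shared barcodes. With each cell assigned to the list with most UMIs the neutrophil-like shares were 23.3, 20.7, 27.0 and 69.7% and the monocyte-like shares 18.4% at E15.5 and 13.1% at P1. The monocyte-like shares at E15.5 and P1 (27.6 and 22.0%) were 40.9 and 26.5% at resolution 0.5 and 34.5 and 17.9% at a minimum of 2000 UMIs, and the P1 share was 29.1% with a naming minimum of 2, an alternative chosen after seeing the data.

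Between stages, thinning gave 219 genes higher and 86 lower in neutrophil-like cells (546 and 194 at full depth), 3 and 3 in monocyte-like cells (13 and 34), and 16 and 20 in dendritic-like cells (399 and 395). With each gene counted without its richest cell, also chosen after seeing the data, 119 genes were lower in neutrophil-like cells, 7 higher in monocyte-like cells, and 101 higher and 194 lower in dendritic-like cells, and the log2 ratio of Sfn in neutrophil-like cells went from -3.51 to 0.02. Without shared barcodes 129 genes were higher in dendritic-like cells, and 195 were higher and 271 lower than in C1q-positive cells. Over all fixed lists, a minimum of 50 UMIs gave 9 genes higher and 2 lower in neutrophil-like cells (18 and 6 at 20 UMIs) and 1 and 19 in dendritic-like cells (6 and 33), and a minimum of 1 UMI gave 34 lower in neutrophil-like cells and 11 and 59 in dendritic-like cells. Without the cells marked by Scrublet, by library and chosen after seeing the data, the P1 mandibular S100a8 level of monocyte-like cells was 2218 in place of 12804 CPM and the P1 maxillary Mmp9 level of osteoclast-like cells 228 (1 cell) in place of 4731 CPM. Thinned cells and higher minimums leave fewer genes to compare, and the cause of the other moves was not tested. Each stage and jaw is 1 pool of tooth organs, the P1 libraries share barcodes, and the P1 maxillary members are the shallowest.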
